A study of Mus musculus with 4 samples.

Results

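The genes described here are 34 genes of the oligodendrocyte lineage and of myelin, a list of names drawn up by function, of which 33 had a probe set naming a single gene among the 18194 genes of the array. The only annotated probe set of *Trf*, a transferrin gene, names a second gene as well, and *Trf* was therefore left out. Expression was measured in whole cortex of C57BL/6J mice 24 h after permanent occlusion of the left middle cerebral artery (pMCAO), at an age of 3 months. There were 4 conditions, the contralateral (noninjured) and ipsilateral (injured) cortex of WT mice and the contralateral and ipsilateral cortex of P4H-TM deficient mice (*P4htm*-/-), which lack transmembrane prolyl 4-hydroxylase and whose line was backcrossed to C57BL/6. Both sides of all mice were exposed to the operation, since the control is the opposite hemisphere and no unoperated mouse is among these samples. RNA of 4 mice was pooled for each condition and hybridized to 1 array, so variation between mice was not measured, no p-value was computed, and array and condition cannot be told apart. Values are log2 signals that the authors obtained with RMA, which brings all arrays to a common distribution.

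Oligodendrocytes wrap axons in myelin, a stack of lipid-rich membrane held together by a small number of very abundant proteins. They arise from precursor cells that carry the PDGF receptor alpha and the NG2 proteoglycan, pass through a newly forming stage, and then switch on the myelin genes under the transcription factors Sox10, Olig1, Olig2, Nkx2-2, Nkx6-2 and Myrf. In the cortex they lie mostly in the deep layers and next to the white matter, and they are known to be sensitive to loss of blood flow.

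The arrays had similar distributions, with medians from 5.53 to 5.55. A background of 4.79 was taken from 81 probe sets for receptors of smell and taste, which the cortex should lack, as their 95th percentile, and from 59.2% to 59.8% of all probe sets exceeded it. All 33 genes lay above this background on all 4 arrays, as genes of a cell type present in cortex would. As a check of the labels, *P4htm* had values of 10.03 and 10.02 on both WT arrays and of 8.27 and 8.23 on both knockout arrays, contralateral before ipsilateral, and whether its probe set lies in the deleted part was not determined. As no array was repeated, the scatter between probe sets of the same gene was taken as a measure of error. Among the 45 detected probe sets of the 16 members that have several, the SD of the log2 difference was between 0.145 and 0.168, depending on the comparison. Among the 81 receptor probe sets the SD was larger, between 0.175 and 0.206. Both kinds of scatter are technical and leave out the variation between mice.

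Mature myelin genes read lowest in *P4htm*-/- ipsilateral cortex. Of the 33 members, 26 had their lowest value of the 4 arrays there, where 27.8% of all 13448 detected genes did. Of the 24 members classed as mature 20 did so. This class holds the 10 myelin membrane genes, 4 lipid enzymes, 2 connexins, *Nkx6-2* and *Myrf*. It also holds *Gsn*, *Gpr37*, *Qdpr*, *Car2*, *Cryab* and *Apod*, which are not restricted to oligodendrocytes. The highest value was in WT contralateral cortex for 11 of the 24 and in WT ipsilateral cortex for another 11. Of all 13448 detected genes, 3925 were highest in WT contralateral and 3980 in WT ipsilateral cortex. The exceptions among the mature members were *Gjb1*, *Myrf* and *Apod*, lowest in *P4htm*-/- contralateral cortex, and *Gsn*, lowest in WT contralateral cortex. All these differences were small, and no member was 1.5-fold apart (0.585 on the log2 scale) in any of the 4 comparisons.

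**Figure D1:**
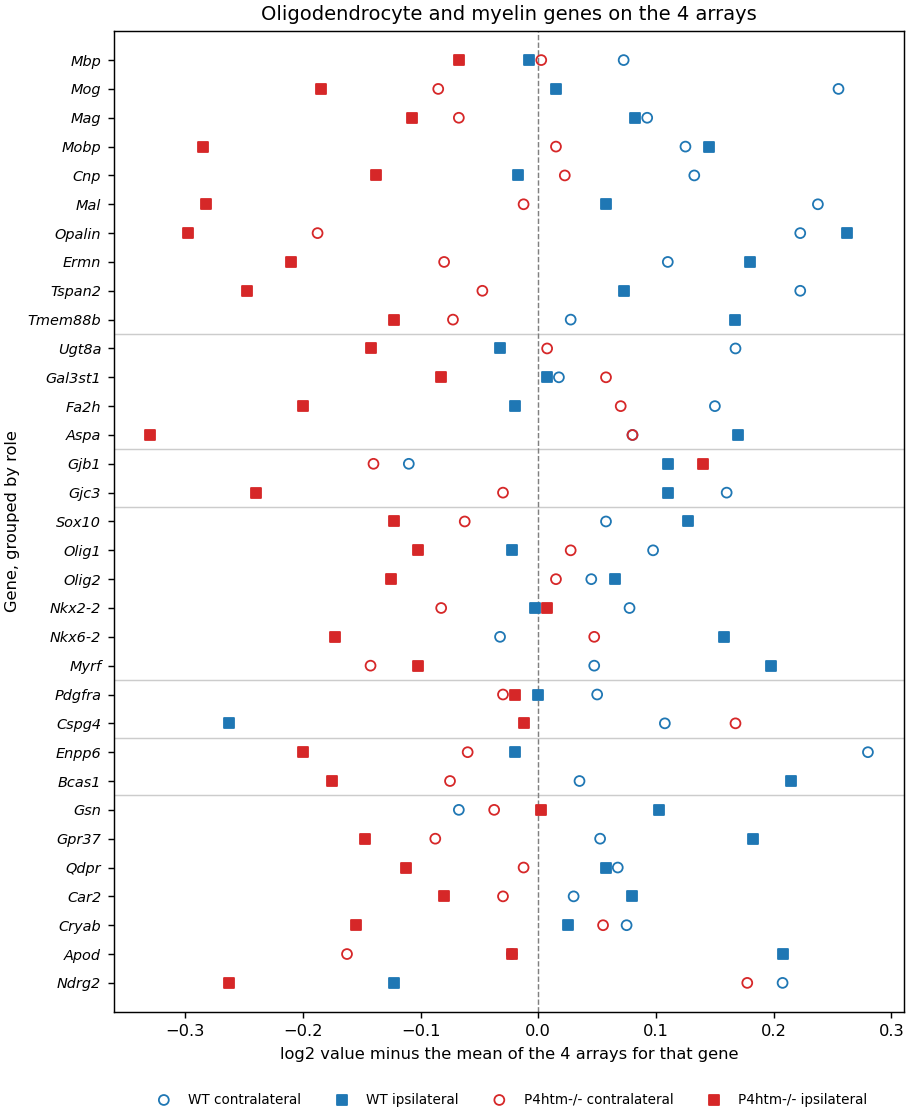
Log2 value of each of the 33 genes on each array (horizontal axis, as the difference from that gene's mean over the 4 arrays), with the genes grouped by role on the vertical axis; blue is WT, red is P4htm-/-, open circles are contralateral and filled squares ipsilateral cortex, and a symbol stands for 1 array. The filled red squares are leftmost for 26 of the 33 genes, and *Cspg4*, whose WT ipsilateral value of 7.02 is leftmost, is among the exceptions.

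The sequences around the transcription starts of 4 members are shown because these are the genes with the lowest differences between the ipsilateral cortices (*Opalin*, *Aspa* and *Mobp*) and the gene with the highest (*Cspg4*). Each spans 300 bases, most of them before the start, and was taken from RefSeq, build GRCm38.p6, in the direction of the gene. Of the 33 members 25 had such an entry. The others were *Mbp*, *Fa2h*, *Sox10*, *Olig1*, *Myrf*, *Bcas1*, *Car2* and *Cryab*. Capitals mark the letters CAGCTG (an E-box, the kind of site that Olig factors bind), ACAAAG or ACAATG (a core bound by SOX factors), CTGGCAC or CTGGTAC (a form of the Myrf site) and TATAAA, searched on both strands, with overlapping matches joined.
Opalin, chr19:41077064-41077363, minus strand: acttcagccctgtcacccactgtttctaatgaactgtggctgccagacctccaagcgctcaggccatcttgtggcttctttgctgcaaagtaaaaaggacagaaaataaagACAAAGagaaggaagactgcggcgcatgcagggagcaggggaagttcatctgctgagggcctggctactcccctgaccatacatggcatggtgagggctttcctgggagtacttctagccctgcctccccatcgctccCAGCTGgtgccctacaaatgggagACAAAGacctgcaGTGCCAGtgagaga
Aspa, chr11:73324588-73324887, minus strand: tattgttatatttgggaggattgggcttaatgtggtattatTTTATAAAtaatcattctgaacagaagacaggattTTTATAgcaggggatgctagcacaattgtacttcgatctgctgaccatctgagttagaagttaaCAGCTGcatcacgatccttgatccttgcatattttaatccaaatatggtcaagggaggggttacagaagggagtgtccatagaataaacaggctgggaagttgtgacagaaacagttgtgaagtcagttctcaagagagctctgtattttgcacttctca
Mobp, chr9:120149492-120149791, plus strand: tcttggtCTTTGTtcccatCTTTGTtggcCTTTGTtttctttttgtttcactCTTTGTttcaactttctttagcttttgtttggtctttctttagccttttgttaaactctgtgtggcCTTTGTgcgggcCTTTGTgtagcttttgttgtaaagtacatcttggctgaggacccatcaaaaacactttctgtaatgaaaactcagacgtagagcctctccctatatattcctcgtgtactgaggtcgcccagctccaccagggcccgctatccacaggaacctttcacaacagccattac
Cspg4, chr9:56864854-56865153, plus strand: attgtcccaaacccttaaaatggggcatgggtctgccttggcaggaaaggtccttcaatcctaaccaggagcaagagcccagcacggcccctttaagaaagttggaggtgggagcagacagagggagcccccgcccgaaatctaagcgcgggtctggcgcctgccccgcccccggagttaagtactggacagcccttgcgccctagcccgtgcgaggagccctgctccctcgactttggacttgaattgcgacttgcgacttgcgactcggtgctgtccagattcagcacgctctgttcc

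The *Opalin* window held 1 E-box, 2 SOX cores and 1 Myrf letter string, that of *Mobp* held 6 SOX cores, that of *Aspa* held 1 E-box and 3 TATA matches that partly overlap, and that of *Cspg4* held none of these letters. Several members have more than 1 listed start, which gave 37 windows. SOX cores were in 40.5% of them and in 28.6% of all 32851 windows of the table. For the Myrf letters these shares were 13.5% and 7.1%, for the E-box 13.5% and 16.3%, and for TATAAA 10.8% and 13.6%. With 37 windows these shares are counts of 15, 5, 5 and 4, and windows of the same gene overlap in part, so they are a description of letters and not of binding.

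Between the ipsilateral cortices of the genotypes, mature myelin members were lower in *P4htm*-/- mice by about 0.2 on the log2 scale and the 2 precursor members were not. Of the 33 members 30 lay below 0 in *P4htm*-/- minus WT ipsilateral cortex, against 50.8% of the 13363 genes detected in this comparison. The median difference was -0.19 for the members and -0.01 for all genes. The number past 1.5-fold was 0, where the share among all genes was 0.666%. A smaller size of 0.322 on the log2 scale was reached by 9 of 33 members on the lower side, against 6.97% of all genes, and by 0 on the higher side, against 2.43%. These 9 were *Opalin*, *Aspa*, *Mobp*, *Ermn*, *Bcas1*, *Gjc3*, *Mal*, *Nkx6-2* and *Gpr37*. Compared with the scatter between probe sets of the same gene, an SD of 0.148 in this comparison, 22 members were lower by more and 1 was higher by more. The receptor probe sets had a larger SD here, 0.194. The share of all genes past 0.148 was not counted, so these 2 counts have no background beside them.

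All 10 genes for proteins of the myelin membrane lay below 0, with a median of -0.305. Other roles were lower too, with medians of -0.22 for 6 transcription factors and -0.17 for 7 other genes abundant in oligodendrocytes. *Opalin*, which encodes a glycoprotein of myelin paranodes, had a log2 value of 8.55 in WT contralateral, 8.59 in WT ipsilateral, 8.14 in *P4htm*-/- contralateral and 8.03 in *P4htm*-/- ipsilateral cortex. Both *P4htm*-/- values were below both WT values, and the ipsilateral difference of -0.56 was the lowest of all members. *Mobp*, a small basic protein of compact myelin, read 12.78, 12.80, 12.67 and 12.37 in the same order. Here the *P4htm*-/- ipsilateral array stood apart from the other 3, with a difference of -0.43 from WT ipsilateral cortex. The 5 probe sets of *Mobp* ranged from -0.51 to -0.13 and were all below 0. *Ermn*, which encodes the cytoskeletal protein ermin of late oligodendrocytes, read 9.92, 9.99, 9.73 and 9.60. Its difference of -0.39 had the same sign on a second probe set, which gave -0.41.

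*Mal*, a proteolipid of compact myelin, read 12.10 and 11.92 in WT and 11.85 and 11.58 in *P4htm*-/- contralateral and ipsilateral cortex. *Tspan2*, a tetraspanin, read 9.77, 9.62, 9.50 and 9.30. On these probe sets each *P4htm*-/- array was below each WT array, with ipsilateral genotype differences of -0.34 and -0.32. All 3 probe sets of *Tspan2* were below 0 in the ipsilateral comparison, from -0.36 to -0.32, whereas between the sides in WT cortex they ranged from -0.15 to 0.34. *Tmem88b* was at -0.29 and *Mog*, a surface glycoprotein of the outermost myelin layer, at -0.20. *Mag*, an adhesion molecule facing the axon, was at -0.19, and *Cnp*, the nucleotide phosphodiesterase of noncompact myelin, at -0.12 with a range of -0.15 to -0.10 over 3 probe sets.

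*Mbp*, which encodes myelin basic protein and is the member with the most probe sets, had the smallest difference of the 10 on the probe set that represents it. That probe set read 14.37 in WT contralateral, 14.29 in WT ipsilateral, 14.30 in *P4htm*-/- contralateral and 14.23 in *P4htm*-/- ipsilateral cortex, a difference of -0.06 between the ipsilateral cortices. The highest value of any probe set on an array was 14.90, so this probe set lies close to the top of the scale. Of its 8 probe sets 7 were below 0, with a median of -0.20 and a range of -0.54 to 0.14. The lowest, at -0.54, read 9.17 in WT and 8.63 in *P4htm*-/- ipsilateral cortex, and the highest, at 0.14, read 9.48 and 9.62. Probe sets of *Mbp* at similar levels therefore disagreed in sign, and the part that the top of the scale plays in the value of -0.06 was not tested.

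**Figure D2:**
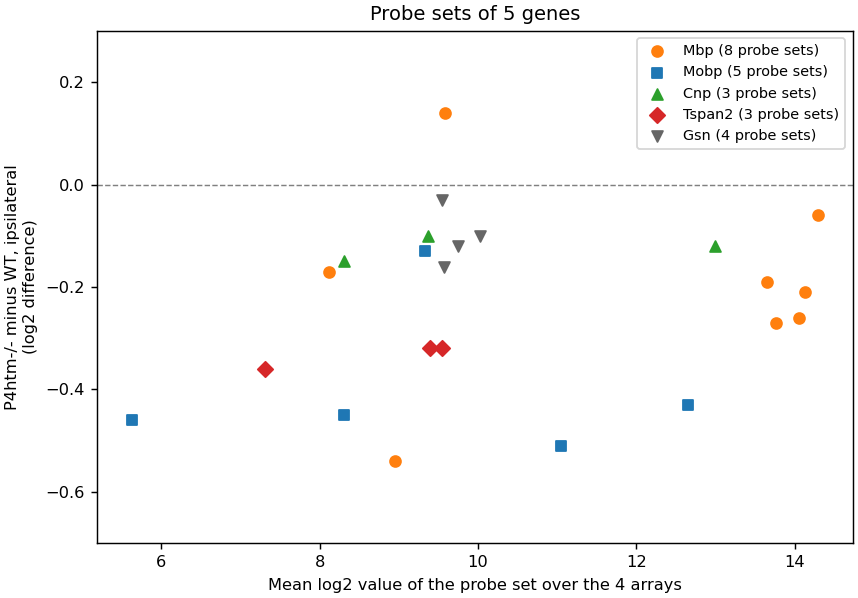
Log2 difference between P4htm-/- and WT ipsilateral cortex (vertical axis) against the mean log2 value of the probe set over the 4 arrays (horizontal axis) for each detected probe set of 5 genes. All probe sets lie below 0 except 1 of *Mbp* at 0.14, and the brightest *Mbp* probe set, at -0.06, lies above the other probe sets of that gene near the same level.

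Enzymes that make or maintain myelin lipids were also below 0, with a median of -0.145 over 4 genes. *Aspa*, the aspartoacylase that releases acetate from N-acetylaspartate in oligodendrocytes, read 8.71 in WT contralateral, 8.80 in WT ipsilateral, 8.71 in *P4htm*-/- contralateral and 8.30 in *P4htm*-/- ipsilateral cortex. Only the last array differed from the others by more than 0.1, and the ipsilateral genotype difference was -0.50. *Fa2h*, which hydroxylates the fatty acids of myelin galactolipids, was at -0.18, *Ugt8a*, which makes galactosylceramide, at -0.11, and *Gal3st1*, which sulfates it, at -0.09. A second probe set of *Ugt8a*, much closer to background, gave 0.32. The connexins of gap junctions differed from each other. *Gjc3* read 6.64, 6.59, 6.45 and 6.24, a difference of -0.35, while *Gjb1*, which read 5.83, 6.05, 5.80 and 6.08, had a difference of 0.03.

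Among the transcription factors 5 of 6 were below 0 between the ipsilateral cortices, with a median of -0.22. *Nkx6-2*, a homeobox gene of late oligodendrocytes, was lowest at -0.33. It read 5.61 and 5.80 in WT and 5.69 and 5.47 in *P4htm*-/- contralateral and ipsilateral cortex. All these values lay below 6.59, the 99th percentile of the receptor probe sets. *Myrf*, the factor that turns on the myelin genes, read 9.14 and 9.29 in WT and 8.95 and 8.99 in *P4htm*-/- contralateral and ipsilateral cortex, with both *P4htm*-/- values below both WT values and an ipsilateral difference of -0.30. *Sox10*, which is present throughout the lineage, was at -0.25, where a dimmer probe set of the gene gave 0.10. *Olig2* was at -0.19 and *Olig1* at -0.08, both basic helix-loop-helix factors of the whole lineage. *Nkx2-2*, a homeobox gene of differentiating precursors, was at 0.01.

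The precursor genes did not share the direction. *Pdgfra*, the receptor through which PDGF drives precursor division, read 9.65 in WT contralateral, 9.60 in WT ipsilateral, 9.57 in *P4htm*-/- contralateral and 9.58 in *P4htm*-/- ipsilateral cortex. Its 4 values lay within 0.08 of each other, and the ipsilateral genotype difference was -0.02. *Cspg4*, which encodes NG2, read 7.39, 7.02, 7.45 and 7.27. It was the highest member at 0.25, and its other probe set gave 0.44. Both precursor genes are also known in other cells, *Cspg4* in pericytes and *Pdgfra* in fibroblasts. The pericyte markers *Pdgfrb* and *Rgs5* had ipsilateral genotype differences of 0.00 and -0.25, and the 11 meningeal and fibroblast markers a median of -0.05, with 7 below 0 and a range from -0.60 for *Mgp* to 0.22 for *Fmod*. Of the 2 genes of newly forming oligodendrocytes, *Bcas1* was at -0.39 with values of 11.58, 11.76, 11.47 and 11.37, and *Enpp6*, a choline phosphodiesterase, at -0.18. A second probe set of *Bcas1*, close to background, gave -0.02, and the mean of all its probe sets -0.12, so the size for this gene depends on the probe set.

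The remaining 7 members, which are abundant in oligodendrocytes but not restricted to them, were all below 0, from -0.33 to -0.10. *Gpr37*, an orphan receptor of myelinating cells, was at -0.33 and *Apod*, a lipid-binding apolipoprotein, at -0.23. *Cryab*, a small heat shock protein, was at -0.18, *Qdpr*, dihydropteridine reductase, at -0.17, *Car2*, a carbonic anhydrase, at -0.16, *Ndrg2*, which is mainly known in astrocytes, at -0.14 and *Gsn*, the actin-severing protein gelsolin, at -0.10.

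A longer list of myelin and oligodendrocyte genes that are not members was set beside them. Of its 41 detected genes 35 were below 0 between the ipsilateral cortices, with a median of -0.24, and 2 were 1.5-fold lower and 0 higher. These were *Serpinb1a*, a serine protease inhibitor, at -0.63, and *Evi2a* at -0.62. In contrast, the 24 detected genes of a list of other precursor genes had a median of 0.005, with 11 below and 12 above 0 and 0 past 1.5-fold. Among them *Gpr17*, a receptor of cells about to differentiate, was at -0.25, *Ptprz1*, a receptor phosphatase, at 0.08 and *Vcan*, versican, at 0.14. By at least 0.322, 2 genes of this list were lower, *Tmem100* at -0.52 and *Lhfpl3* at -0.35, and 1 was higher, *Sema5a* at 0.33. How much of the signal of this list comes from other cells of the cortex was not tested. Genes of cholesterol synthesis, the main lipid pathway that myelin draws on, had 16 of 19 below 0 with a median of -0.13 and none past 1.5-fold.

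Other cell types differed between the same 2 arrays. Of 15 neuronal markers 14 were above 0 and 0 below, with a median of 0.15, and their summed signal was 69455 in WT ipsilateral, 76900 in *P4htm*-/- ipsilateral, 79991 in WT contralateral and 77887 in *P4htm*-/- contralateral cortex. Choroid plexus and ependymal markers had a median of -0.265 with 8 of 10 below 0, and their summed signal, most of it from the transthyretin gene *Ttr*, was 18013 in WT and 13228 in *P4htm*-/- ipsilateral cortex, against 914 and 1010 in the contralateral cortices. Medians were -0.075 for astrocytes (7 of 12 below 0), -0.07 for microglia and macrophages (7 of 11), -0.11 for endothelium and pericytes (8 of 11), and 0.02 for 5 markers of Schwann cells, the myelinating cells of peripheral nerves, of which *Egr2* was 1.5-fold higher at 0.79. The myelin lists thus had the opposite sign to the neuronal markers, and the part of tissue make-up in it was not tested. In these bulk samples fewer oligodendrocytes and less RNA per oligodendrocyte cannot be told apart.

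**Figure D3:**
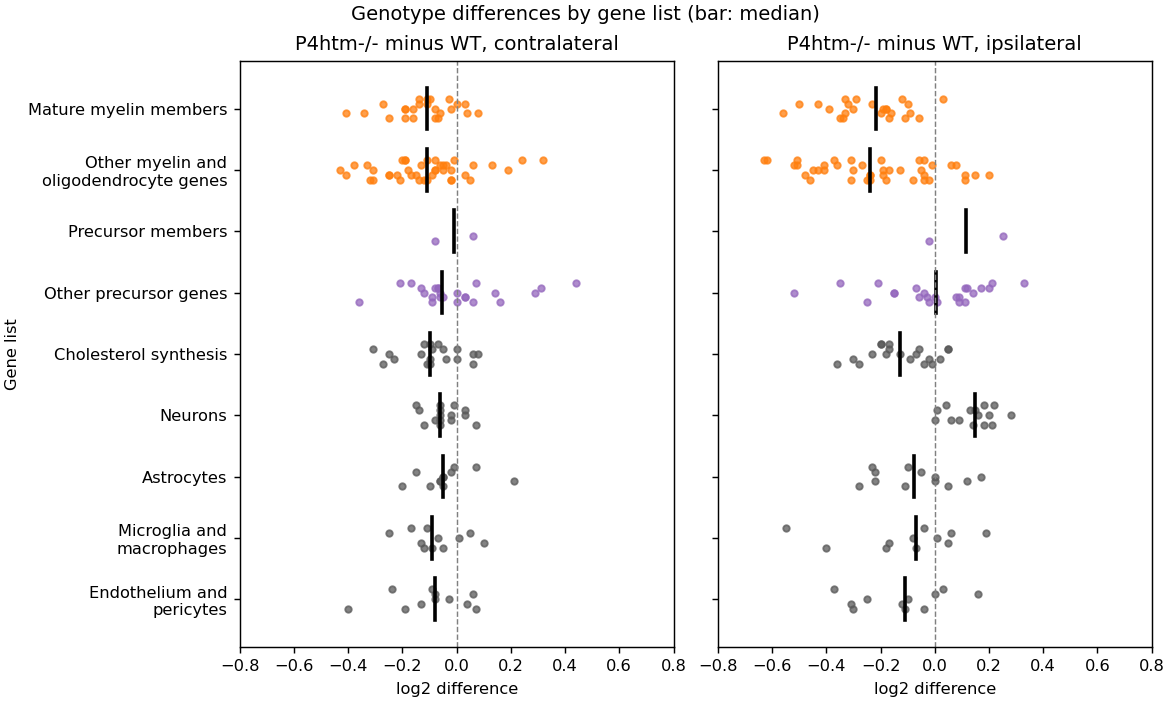
Log2 difference between P4htm-/- and WT mice for each detected gene of 9 lists (points; the vertical jitter has no meaning) in contralateral (left panel) and ipsilateral cortex (right panel), with the median of each list as a black bar. In the right panel the bars for mature myelin members at -0.215 and for other myelin genes at -0.24 lie left of 0, the bar for precursor members at 0.115 rests on 2 genes, and the bar for neurons lies at 0.15.

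Gene length moved with the comparison too. When the detected genes were divided into 5 groups of equal size by their genomic span in the RefSeq table, the group with the shortest spans had a median of -0.08 between the ipsilateral cortices and the group with the longest spans a median of 0.07. The members' median was below that of all genes in each of the 5 groups. From the shortest to the longest spans it was -0.24 for 4 members, -0.185 for 12, -0.33 for 7, -0.11 for 7 and -0.18 for 3. The part of gene span in the members' difference was not tested.

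In the contralateral cortex most members also had lower values in the *P4htm*-/- pool, by a smaller amount. Of the 33 members 28 lay below 0 and 4 above, where 53.1% of 13207 genes lay below 0. The median was -0.11, against -0.01 for all genes. None of the members was past 1.5-fold, where 0.386% of all genes were, 3 were lower by at least 0.322 (all genes 2.1%) and 0 higher by as much (2.37%). The genotype comparisons on the 2 sides use different arrays of the same mice. With an SD between probe sets of 0.168, 8 members were lower by more than that scatter and 0 were higher. For this size, too, the share of all genes was not counted.

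The members lower by at least 0.322 in contralateral cortex were *Opalin* at -0.41, *Mog* at -0.34 and *Enpp6* at -0.34. *Mog* read 8.08 in WT contralateral, 7.84 in WT ipsilateral, 7.74 in *P4htm*-/- contralateral and 7.64 in *P4htm*-/- ipsilateral cortex. *Enpp6* read 7.47, 7.17, 7.13 and 6.99. In both genes WT contralateral cortex was higher than each of the other 3 arrays by at least 0.24. All 10 myelin membrane genes were below 0, with a median of -0.175, and *Mbp* was again the closest to 0 at -0.07. The lipid enzymes did not share this, with *Aspa* at 0.00, *Gal3st1* at 0.04, *Fa2h* at -0.08 and *Ugt8a* at -0.16. *Nkx6-2* at 0.08 and *Cspg4* at 0.06 were the highest members. Dimmer probe sets of *Ugt8a*, *Sox10*, *Bcas1* and *Gjc3* gave 0.47, 0.37, 0.36 and 0.27 here, opposite in sign to the probe sets that represent these genes, and the median of the members was -0.075 with the mean of all probe sets.

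Of the other myelin and oligodendrocyte genes 34 of 41 were below 0 on the contralateral side, with a median of -0.11, and of the other precursor genes 13 of 24, with a median of -0.055. Cholesterol synthesis genes had a median of -0.10 with 14 of 19 below 0. Here neuronal markers were below 0 too, 12 of 15 with a median of -0.06, as were 10 of 12 astrocyte, 8 of 11 microglia and macrophage and 8 of 11 endothelial and pericyte markers, with medians of -0.05, -0.09 and -0.08. The share of precursor genes below 0 was near that of all genes, and the medians of the myelin lists lay within 0.02 of those for cholesterol synthesis and microglia. Medians above 0 were found for Schwann cell markers (0.05, 1 of 5 below 0), choroid plexus and ependyma (0.02, 3 of 7) and blood (0.98, 0 of 3). Of the 3 blood genes, *S100a8* and *S100a9* counted as detected only through the *P4htm*-/- array. Their WT values were 4.72 and 4.28, below background, so the blood median and count partly follow from the detection rule.

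**Figure D4:**
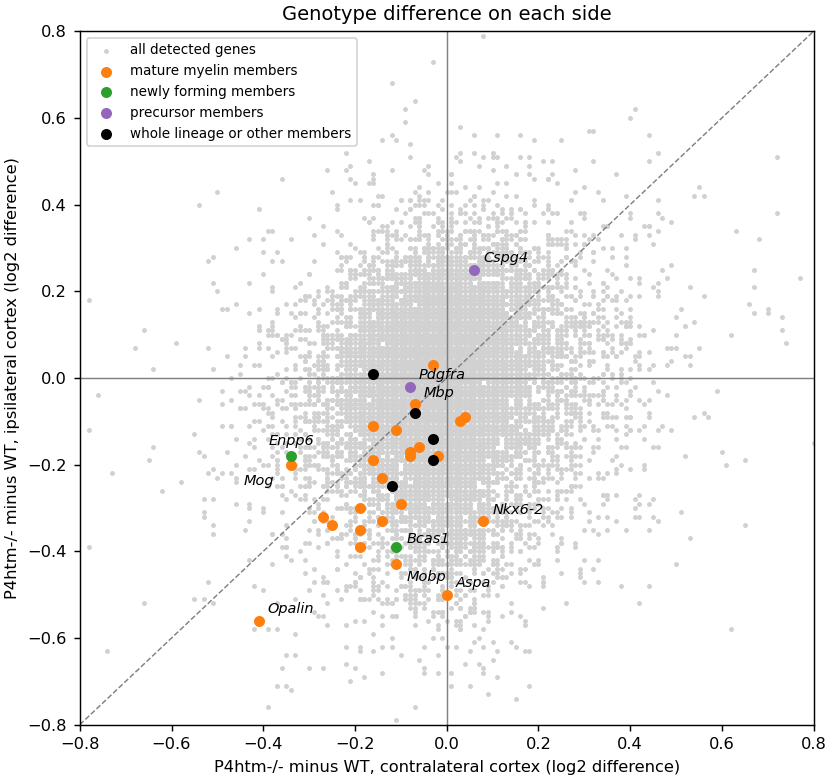
Log2 difference between P4htm-/- and WT mice in contralateral (horizontal axis) and ipsilateral cortex (vertical axis) for all detected genes (grey) and the 33 members, coloured by stage; the dashed line marks equal differences, and genes beyond 0.8 on either axis are outside the frame. Most members lie to the lower left of the origin, *Opalin* at -0.41 and -0.56 farthest out, while *Cspg4* lies in the upper right.

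In WT cortex the members as a group lay around 0 after 24 h of ischemia. In WT ipsilateral minus contralateral cortex 18 of 33 lay below 0 and 15 above, close to the 52.9% of 13320 genes below 0. Their median was -0.01, and that of all genes -0.02. The number past 1.5-fold was 0 (all genes 2.86%), 2 members were lower by at least 0.322 (5.15%) and 0 higher by as much (8.73%). Those 2 were *Cspg4* at -0.37 and *Ndrg2* at -0.33, neither a myelin gene. On the same arrays *Gfap*, the filament of reactive astrocytes, was higher by 2.13. This comparison shares an array with each of the genotype comparisons.

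Mature members went both ways in WT cortex, 12 below and 12 above 0. *Mog* at -0.24 and *Ugt8a* at -0.20 were the lowest of them and *Apod* at 0.23 and *Gjb1* at 0.22 the highest. A second probe set of *Apod*, which read 7.34 in WT contralateral and 8.26 in WT ipsilateral cortex, gave 0.92, and 0.98 in *P4htm*-/- cortex with 7.14 and 8.12. Both probe sets of this gene had the same sign but not the same size. Both precursor genes were below 0, *Pdgfra* at -0.05 and *Cspg4* at -0.37, where a dimmer probe set of *Pdgfra* gave 0.29. Of the other precursor genes *Tnr*, which encodes the matrix protein tenascin-R, was 1.5-fold lower at -0.67, *Sox8* was at -0.40, and the median over 24 genes was -0.045. Of the other myelin genes *Cd9*, a tetraspanin of many cells, was 1.5-fold higher at 0.89 and *Klk6*, a serine protease made by oligodendrocytes, at 0.69, with a median of -0.01 over 41 genes.

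In *P4htm*-/- cortex the members were mostly lower on the ipsilateral side. Of the 33 members 27 lay below 0 and 6 above, against 54.7% of 13309 genes below 0, and the median was -0.13, against -0.02 for all genes. None was past 1.5-fold (all genes 1.7%), 2 were lower by at least 0.322 (2.41%) and 0 higher by as much (4.02%). The 2 were *Ndrg2* at -0.44, with 11.84 in contralateral and 11.40 in ipsilateral cortex, and *Aspa* at -0.41. All 10 myelin membrane genes were below 0, from -0.30 for *Mobp* to -0.04 for *Mag*, and so were all 4 lipid enzymes, with a median of -0.21. Above 0 were *Gjb1* at 0.28, *Apod* at 0.14, *Nkx2-2* at 0.09, *Myrf* and *Gsn* at 0.04 and *Pdgfra* at 0.01. Among the other myelin genes 28 of 41 were below 0, with a median of -0.09, and neuronal markers were near 0 with a median of -0.01. This comparison shares its ipsilateral array, on which most members were lowest, with the ipsilateral genotype comparison, and the 2 are not separate evidence.

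**Figure D5:**
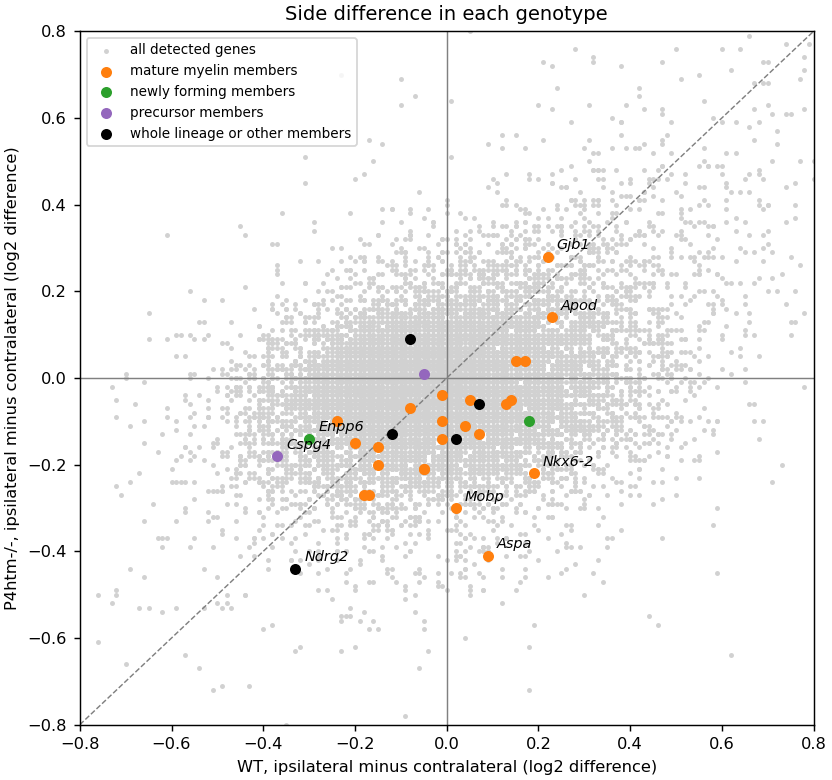
Log2 difference between ipsilateral and contralateral cortex in WT (horizontal axis) and P4htm-/- mice (vertical axis) for all detected genes (grey) and the 33 members, coloured by stage; the dashed line marks equal differences, and genes beyond 0.8 on either axis are outside the frame. Members spread evenly to the left and right of 0 but lie mostly below 0 on the vertical axis, with *Aspa* at 0.09 and -0.41.

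Subtracting the WT side difference from that of *P4htm*-/- mice gave a value below 0 for 25 of the 33 members, where 48.1% of all detected genes were below 0, and medians of -0.10 for the members and 0.00 for all genes. For the 24 mature members it was below 0 in 20, with a median of -0.105. *Aspa* was the lowest at -0.50, followed by *Nkx6-2* at -0.41, each with 1 detected probe set. The values of *Nkx6-2* were dim, below the 99th percentile of the receptor probe sets on all 4 arrays. *Mobp* was at -0.32 on its brightest probe set, but the mean of all its probe sets gave closer side differences, -0.05 in WT and -0.22 in *P4htm*-/- cortex. Both precursor genes were above 0, *Cspg4* at 0.19 and *Pdgfra* at 0.06, as were *Nkx2-2* at 0.17, *Enpp6* at 0.16 and *Mog* at 0.14. With 4 arrays this difference of differences uses every value and has no error of its own, and it was not tested.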

How the data were processed

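Total RNA of whole cortex was pooled from 4 mice per condition, and the authors hybridized biotin-labeled cRNA to 1 Affymetrix Mouse Genome array per condition. The deposited table holds log2 values per probe set with 2 decimals. The submitters' processing notes name RMA, and the methods describe normalization with GenePattern software. Their versions and a genome build could not be taken from the labels or methods. Base 2 was taken from the range of the values. RMA corrects background and equalizes the distributions of the arrays, which removes a shift common to all genes. The number of arrays limits the precision.

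Of 45101 probe sets, 34958 name 1 gene, 932 name several and were left out, and 9211 are unnamed. Symbols of 34754 were looked up by Entrez ID in a RefSeq table (GRCm38.p6), which also gave gene spans. Among several probe sets of a gene, that with the highest mean was used. A gene entered a comparison when at least 1 of both arrays lay above background. All 33 members were named, and of each other list at most 4 detected genes past 1.5-fold in any comparison, those with the largest differences, with some defining genes. Other precursor and pericyte genes, and *Fmod*, were named after their values were seen. The members and lists were chosen with earlier results of these data known. The value table held 0 unused columns. Counting steps were tested on simulated data. Python 3.11.15, numpy 2.4.6, pandas 2.3.3, matplotlib 3.10.9, R 4.3.3 and limma 3.58.1 (cyclic loess) were used.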

Additional observations from a re-analysis of the deposited data

Results flagged for a closer look

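The side difference of *Nkx6-2* had opposite signs in the genotypes, 0.19 in WT and -0.22 in *P4htm*-/- cortex, a difference of -0.41. The gene was dim, and the receptor probe sets had SDs of 0.206 and 0.178 in these comparisons. For *Bcas1* the side differences were 0.18 and -0.10, a difference of -0.28. The mean of all probe sets of *Bcas1* gave -0.01 in WT and -0.30 in *P4htm*-/- cortex, so its opposite signs depend on the probe set. With 1 array per condition neither difference was tested. Outside the probe sets used to represent the genes, the second probe set of *Apod* was past 1.5-fold in ipsilateral against contralateral cortex, by 0.92 in WT and 0.98 in *P4htm*-/- mice, where the representing probe set gave 0.23 and 0.14.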

How the results depend on the processing

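Median centring, cyclic loess, the background at its 99th percentile and both detection filters left all counts past 1.5-fold at 0 and moved no median by 0.05 or more. Medians next to 0 changed sign, in WT cortex for the members (from -0.01 to 0.031 with cyclic loess) and the mature members (from 0.005 to -0.005 with median centring and to -0.010 with the 99th percentile), and for the precursor genes in contralateral cortex (from -0.01 to 0.009 with cyclic loess). With the mean of all probe sets, the share of members below 0 in *P4htm*-/- minus WT contralateral cortex was 68.8%, where it was 84.8% before, and 48 of 131 single values of members moved by at least 0.05. The median of the 2 precursor genes depended most on the probe sets. With the mean of probe sets it was -0.119 in WT and -0.007 in *P4htm*-/- ipsilateral minus contralateral cortex, and 0.121 and 0.233 in contralateral and ipsilateral *P4htm*-/- minus WT cortex. With every detected probe set counted these 4 values were -0.135, 0.020 (a change of sign from -0.085), 0.105 and 0.205, and 1 probe set, of *Apod*, was past 1.5-fold in ipsilateral minus contralateral cortex of each genotype. A rule of 0.322 on the log2 scale counted 2, 2, 3 and 9 members in the same order of comparisons. Without the 9 members also known in other brain cells, the median between the ipsilateral cortices was -0.27 for all members and -0.30 for mature ones. The median difference of the members ranged from -0.27 to -0.185 between the ipsilateral cortices, from -0.13 to -0.075 between the contralateral cortices, and from -0.02 to 0.031 between sides in WT cortex over these alternatives. No paired analysis was possible because each condition has 1 array. Differences under about 0.15, the scatter between probe sets of a gene, could not be resolved for a single member. Taken from the receptor probe sets, this limit would be larger, between 0.175 and 0.206.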

Other observations

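Genes of signals that act on the oligodendrocyte lineage had a median of -0.04 between the ipsilateral cortices (13 of 24 below 0) and of -0.08 between the contralateral cortices (19 of 23). *Lif*, a cytokine known to promote survival of oligodendrocytes, read 4.47 in WT contralateral, 6.08 in WT ipsilateral, 4.78 in *P4htm*-/- contralateral and 5.02 in *P4htm*-/- ipsilateral cortex. It was the only gene of the list past 1.5-fold between the ipsilateral cortices, at -1.06, and its WT contralateral and *P4htm*-/- contralateral values were not above background.

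Enzymes of sphingolipid and fatty acid synthesis had a median of 0.01 over 17 genes between the ipsilateral cortices and of -0.07 between the contralateral cortices, with 8 and 13 below 0. Striatal neuron markers had a median of 0.195 between the ipsilateral cortices, with 7 of 8 above 0. The medians of meningeal and fibroblast markers were 0.23 in WT and 0.10 in *P4htm*-/- ipsilateral minus contralateral cortex, and those of blood markers 1.775 over 4 genes and 1.57 over 3. In WT cortex the blood genes *S100a8* and *S100a9* were above background only on the ipsilateral array.

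Marker genes of other cells past 1.5-fold are given by 4 values each, those of WT before *P4htm*-/- mice and, within a genotype, of the contralateral before the ipsilateral side. Of the astrocyte markers, *Gfap* read 8.07, 10.20, 8.14 and 9.97, *Vim* 9.19, 10.74, 9.09 and 10.46, and *Serpina3n* 6.04, 8.27, 6.25 and 8.39. Of the microglia and macrophage markers, *Cd68* read 6.78, 7.78, 6.67 and 7.23 and *Ptprc* 6.41, 7.27, 6.36 and 7.09. Of these 5 genes none was past 1.5-fold between the genotypes.

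Of the meningeal and fibroblast markers, *Col3a1* read 6.20, 7.88, 6.08 and 7.33, *Mgp* 9.58, 10.70, 9.65 and 10.10, *Dcn* 9.09, 9.74, 8.67 and 9.64, and *Lum* 6.22, 7.09, 6.01 and 6.95. Only *Mgp* of these 4 was past 1.5-fold between the genotypes, at -0.60 in ipsilateral cortex. Of the choroid plexus and ependymal markers, *Ttr* read 8.71, 14.06, 9.03 and 13.62, *Ecrg4* 6.35, 8.38, 6.48 and 7.22, *Calml4* 4.74, 6.49, 4.29 and 4.82, and *Kl* 4.91, 5.62, 4.78 and 5.80. Between the ipsilateral cortices *Calml4* was at -1.67 and *Ecrg4* at -1.16. The *P4htm*-/- ipsilateral value of *Calml4* was just above the background of 4.79 and its contralateral values were below it, so the size of -1.67 is uncertain. *Egr2* read 6.88, 6.18, 6.96 and 6.97, so that its difference of 0.79 goes with a low value on the WT ipsilateral array. Of the blood genes, *S100a8* read 4.72, 7.20, 5.28 and 7.62, *S100a9* 4.28, 6.74, 5.39 and 6.96, and *Hbb-b2* 5.06, 6.14, 6.04 and 6.26. *Alas2* read 3.70, 4.79, 4.02 and 4.63. It counted as detected only through the WT ipsilateral array, where it equals the rounded background.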
